A study of Mus musculus with 6 samples.

Results

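The cytokine genes described here are 10 mediators made by macrophages. Of these, 8 are inflammatory ligands (Tnf, Il1a, Il1b, Il18, Il6, Osm, Il12b and Tnfsf12) and 2 are regulatory (Il10 and Il1rn). They were taken by name from the 23394 genes measured, and each gene was read from its most abundant transcript, judged over all 6 libraries. All 10 passed the filter on low read numbers that left 15619 genes for testing. The samples were cells carrying F4/80, a surface antigen of mouse macrophages, selected on magnetic columns from digested livers of male C57BL/6 mice aged 3 months. Knockout animals (KO) and wild-type animals (WT) gave 3 libraries each. Every animal of both groups had received carbon tetrachloride (CCl4), a hepatotoxin, by intraperitoneal injection, so no untreated liver enters the comparison. The labels name neither the targeted gene nor a promoter or Cre line, and do not state whether 1 animal gave 1 library, so p-values describe the spread between these libraries and nothing wider.

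TNF and the IL-1 cytokines are released by activated macrophages and switch on NF-kB and MAP kinase signalling in neighbouring cells. IL-6 and oncostatin M signal through the shared receptor chain gp130 and STAT3, and IL-6 drives the acute phase response of hepatocytes. IL-10 restrains macrophage activation, and the IL-1 receptor antagonist occupies the IL-1 receptor without signalling. Many of these messages are short-lived, because AU-rich stretches in their 3′ untranslated regions (3′ UTRs) recruit decay factors such as tristetraprolin, the product of Zfp36.

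The AU-rich stretches are shown because they mark which of the cytokine messages carry the best-known signal for rapid decay. For each gene the window of 30 bases richest in the word ATTTA was read from the GENCODE transcript sequences (GRCm38, release M21), in the sense of the transcript, with the words in capitals. The Tnf window lies at chr17:35199679-35199708 on the minus strand, the Il1b window at chr2:129364808-129364837 (minus), the Il12b window at chr11:44413473-44413502 (plus), the Il6 window at chr5:30019677-30019706 (plus) and the Il1a window at chr2:129300109-129300138 (minus).
Tnf: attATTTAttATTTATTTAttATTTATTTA
Il1b: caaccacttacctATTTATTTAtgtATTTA
Il12b: ATTTAagtaATTTAtgtATTTAttaATTTA
Il6: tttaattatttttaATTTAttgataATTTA
Il1a: attttatctatgtATTTAtaaatatATTTA

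Counted over whole 3′ UTRs, Tnf held 8 ATTTA words in 764 bases, which is 10.5 per kb. Il1b held 4 in 459 bases, Il10 held 6 in 706 bases, Il12b held 6 in 797 bases, Osm held 6 in 1017 bases and Il6 held 10 in 1668 bases. These densities lay between 5.90 and 8.71 per kb, against a median of 1.25 per kb over the 12826 tested genes with an annotated 3′ UTR. Il1a held 3 words at 2.72 per kb, Il18 1 word in a short 3′ UTR of 123 bases, Tnfsf12 1 word in 590 bases and Il1rn none in 1864 bases. At least 1 word was present in 68.4% of these 12826 genes, so presence alone says little. The longer word TTATTTATT occurred 5 times in Tnf, in none of the other 9 cytokine genes, and in 7.42% of the 12826 genes. A match is a description of the letters and not a measured binding site.

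**Figure D1:**
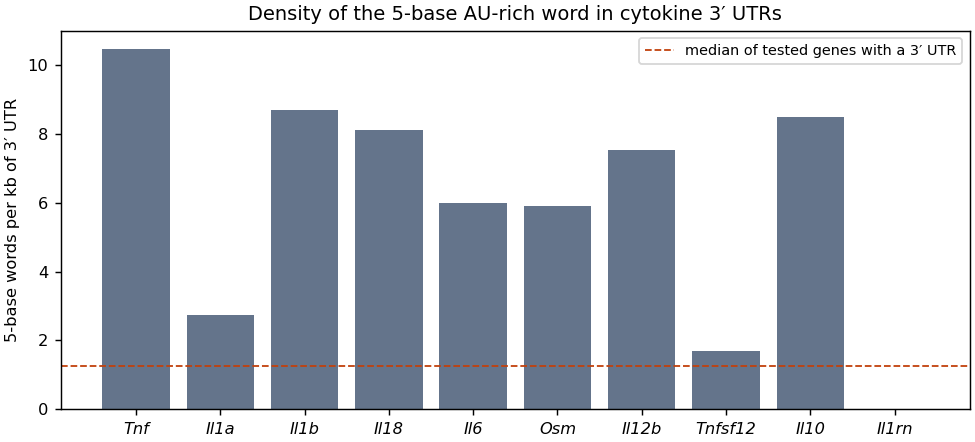
Number of ATTTA words per kb of 3′ UTR for the kept transcript of each cytokine gene (bars), with the median of the tested genes that have an annotated 3′ UTR (dashed line). Tnf stands highest at 10.5 per kb, while Tnfsf12 at 1.69 and Il1a at 2.72 are the lowest of the genes with any word, and Il1rn has none.

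With 1 transcript per gene, the KO libraries held 10790842 to 19163317 reads and the WT libraries 15027644 to 22157238. WT replicate 3 stood apart in 1 respect that touches the results: 8 of the 10 cytokine genes had their lowest WT value there, and its share of mitochondrial reads was 6.19%, against 16.2% to 27.5% in the other 5 libraries. KO replicate 1 stood apart on the second principal component. The selected cells carried macrophage markers in every library, and none of the 11 on the list was at 0. The summed level of these 11 was 59511 to 77361 normalised counts in KO and 58325 to 107658 in WT libraries. Markers of other liver cells differed between the groups. All 12 hepatocyte markers had a log2 change above 0 and 7 rose, with sums of 93650 to 174278 in KO and 24473 to 74989 in WT. Over all tested genes, 54.2% were above 0 and 2.09% rose, by limma at an adjusted p under 0.05. All 12 endothelial markers were above 0 and 4 rose (Bmp2, Emcn, Tie1 and Clec4g, named after their values were seen), with sums of 61162 to 125999 in KO and 29885 to 55338 in WT. Of the other lists, erythroid sums were 30718 to 268329 in KO and 2219 to 33183 in WT. Cholangiocyte sums were 14880 to 30186 in KO and 3056 to 8179 in WT. Most of each came from Spp1 alone, at 13931 to 28598 in KO and 2374 to 7901 in WT. All 5 tested cholangiocyte markers were above 0, but Krt19 and Epcam overlapped between the groups. Of the 5, only Spp1 rose (log2 change 2.27, limma adjusted p = 0.0433). Which cells gave the Spp1 reads was not tested, so the cholangiocyte sums do not measure cholangiocytes alone. Neutrophil sums were 10134 to 16875 in KO and 12067 to 17459 in WT. These overlapped, but 10 of the 11 neutrophil markers were below 0 (median log2 change -0.41), and none passed. B cell sums (24480 to 56324 in KO, 22945 to 48392 in WT) overlapped, as did T and NK cell sums (4329 to 9569 in KO, 3822 to 8886 in WT). Mast cell and basophil sums were 1967 to 2061 in KO and 1063 to 1392 in WT. Kit was the largest part, at 1026 to 1613 in KO and 581 to 925 in WT. Of these 6 markers, 3 were above 0, and Mcpt8, Ms4a2 and Prss34 were below, at -0.80, -1.04 and -1.07. The sums therefore do not show that all markers of this list were higher in KO. No tested marker of these lists was at 0 in all libraries, and the part of these cells in the cytokine values was not tested. In such bulk samples, fewer cells of a type and less RNA per cell cannot be told apart.

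Across the 10 genes, none passed limma's test of KO against WT at an adjusted p under 0.05 over all tested genes, while 2.44% of all genes did, 2.09% being higher and 0.352% lower in KO. Without adjustment, Tnfsf12, Il18, Il1a and Il12b had a p under 0.05, which is 4 of the 10, against 18.0% of all genes. edgeR, DESeq2 and limma-voom on the recovered reads called 0 of the 10 as well, with 1.81%, 9.02% and 2.14% of all genes called. The median log2 change of the 10 was -0.11, with 3 above 0 and 7 below, beside a median of 0.05 over all genes, of which 54.2% were above 0. The genes did not move as a block, since their changes ran from -1.74 for Il12b to 1.08 for Il1a. In 3 of the 10 the KO and WT values did not overlap, Il1a and Tnfsf12 being higher and Il12b lower in KO. Over all tested genes 22.9% did not overlap, 13.7% being higher and 9.25% lower in KO.

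**Figure D2:**
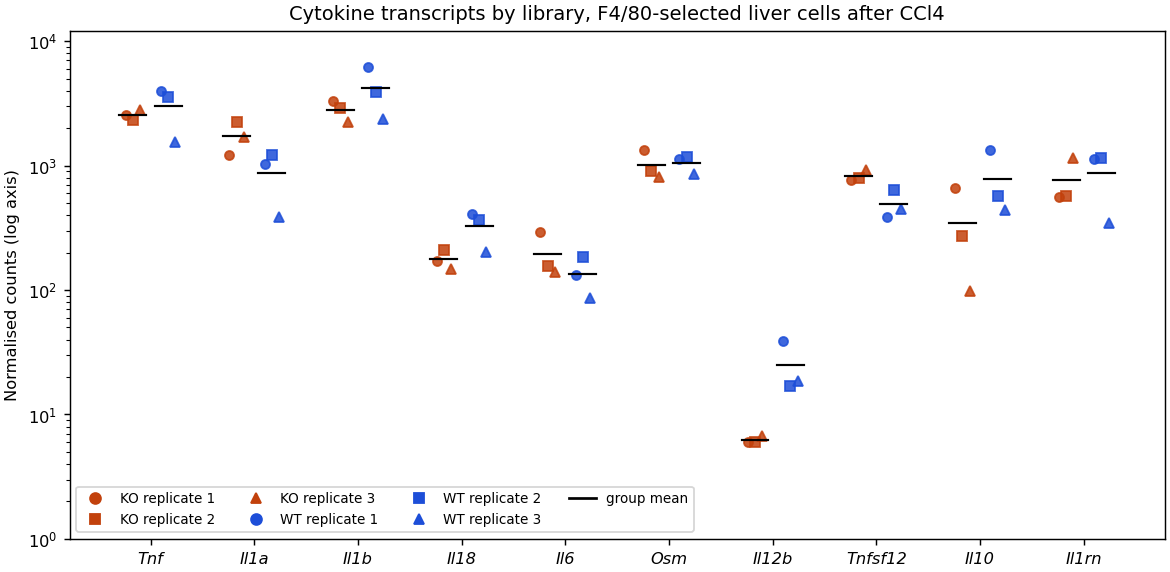
Normalised counts (log axis) of the 10 cytokine genes in each library, KO in orange to the left and WT in blue to the right, with marker shape giving the replicate and a black line the group mean. The KO values of Il1a and Tnfsf12 lie above all WT values, those of Il12b lie below, and WT replicate 3 (blue triangle) is the lowest WT value for 8 genes.

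Per length, Il1b and Tnf were the most abundant in both groups. Il1b averaged 2073 ± 398 normalised counts per kb in KO and 3071 ± 1421 in WT libraries, and Tnf averaged 1569 ± 143 in KO and 1846 ± 800 in WT (SD, n = 3 each). These 2 overlapped within 1 SD in each group. In KO libraries the order then ran Il1a, Tnfsf12, Osm, Il1rn, Il10, Il18, Il6 and Il12b. There, Tnf was above Il1a by more than 1 SD of each, and the neighbours from Il1a down to Il18 overlapped. In WT libraries the order after Tnf was Il10, Il18, Osm, Il1a, Il1rn, Tnfsf12, Il6 and Il12b, and the neighbours from Il10 down to Tnfsf12 overlapped. Il6, at 83.5 ± 36.3 per kb in KO and 57.2 ± 20.5 in WT, and Il12b, at 3.35 ± 0.25 in KO and 13.3 ± 6.68 in WT, were below their neighbours by more than 1 SD in both groups. Il1a was the third in KO and the sixth in WT, and Il10 was the seventh in KO and the third in WT.

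Tnf encodes the tumour necrosis factor and lies at chr17:35199381-35202007 on the minus strand of GRCm38 (ENSMUSG00000024401). It stood at 2561, 2342 and 2809 normalised counts in KO replicates 1 to 3, against 4009, 3532 and 1536 in WT replicates 1 to 3. The KO values were close together and lay inside the WT range, which was set at its low end by replicate 3. The log2 change was -0.12 (SE 0.33, 95% interval -0.86 to 0.61, limma adjusted p = 0.891), and it was 0.14 without WT replicate 1 and 0.047 without WT replicate 2. The second annotated Tnf transcript stood at 95.9% of the kept model.

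Il1a encodes IL-1α, which is active as its uncleaved precursor and acts as an alarm signal when cells die, and lies at chr2:129299610-129309972 (minus strand, ENSMUSG00000027399). It stood at 1216, 2246 and 1685 normalised counts in KO libraries, against 1024, 1209 and 389 in WT libraries. All KO values were above all WT values, but KO replicate 1 and WT replicate 2 were almost level. The log2 change of 1.08 (SE 0.40, 95% interval 0.18 to 1.99) did not pass, with a limma adjusted p of 0.193, and without WT replicate 3 it was 0.58. Over 222 bases, 11.2% of the transcript, Il1a overlaps the antisense gene Gm14023, which held 0 to 8.94 normalised counts in any library.

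Il1b encodes IL-1β, which is made as an inactive precursor that caspase-1 cleaves, and is the neighbour of Il1a at chr2:129364570-129371139 on the same strand (ENSMUSG00000027398). It stood at 3313, 2879 and 2239 normalised counts in KO libraries, against 6202, 3919 and 2371 in WT libraries. The groups overlapped, with KO replicates 1 and 2 above WT replicate 3. Il1b had a log2 change of -0.48 (SE 0.32, 95% interval -1.21 to 0.25, limma adjusted p = 0.498), with -0.14 without WT replicate 1 and -0.83 without WT replicate 3. Its 2 shorter annotated transcripts, at 37.4% and 9.35% of the kept model, had log2 changes of -0.44 and -0.54.

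The pair was also compared within libraries, where a ratio does not depend on how a library was scaled. Il1b exceeded Il1a by 2.72, 1.28 and 1.33 times in KO replicates 1 to 3, against 6.05, 3.24 and 6.09 times in WT replicates 1 to 3. No KO ratio reached the lowest WT ratio. The mean log2 ratio was 0.74 ± 0.61 in KO and 2.30 ± 0.52 in WT (SD, n = 3 each), a difference of -1.56 with a two-sided exact permutation p = 0.1, the smallest that 3 against 3 libraries allow. It was computed with 16 other ratios, after earlier results of these data were known, and its Benjamini-Hochberg adjusted exact p over the 17 was 0.189. Leaving out any 1 library, changing the pseudocount or summing transcripts gave differences of -1.92 to -1.37.

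Both start regions are shown because these adjacent genes share a strand and a family, and their ratio did not overlap between the groups. They run from 250 bases before to 50 bases after the start in the RefSeq table for GRCm38.p6, both on the minus strand, with every match to 5 searched words in capitals. Il1a covers chr2:129309923-129310222 and Il1b covers chr2:129371090-129371389.
Il1a: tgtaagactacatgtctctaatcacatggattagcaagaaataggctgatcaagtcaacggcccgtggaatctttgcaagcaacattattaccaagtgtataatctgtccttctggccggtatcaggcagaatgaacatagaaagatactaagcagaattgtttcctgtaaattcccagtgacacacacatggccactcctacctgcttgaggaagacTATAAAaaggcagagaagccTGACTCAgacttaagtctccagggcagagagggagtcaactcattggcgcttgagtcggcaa
Il1b: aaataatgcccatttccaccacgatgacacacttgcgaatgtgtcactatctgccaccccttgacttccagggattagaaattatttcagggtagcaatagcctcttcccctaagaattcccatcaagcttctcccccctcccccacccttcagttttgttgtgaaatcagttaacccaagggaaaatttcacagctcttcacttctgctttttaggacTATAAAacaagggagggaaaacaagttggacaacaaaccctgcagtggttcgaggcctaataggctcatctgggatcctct

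The words were TATAAA, the AP-1 form TGANTCA, an NF-kB form, the form TTGCNNAA of C/EBP sites and an interferon element form, each searched on both strands. Among 32817 start regions in the table they occurred in 13.6%, 7.81%, 1.63%, 10.8% and 3.43%. Both genes carried TATAAA, beginning 32 bases before the start in Il1a (position -32) and at position -31 in Il1b. Il1a alone of the pair carried the AP-1 form, as TGACTCA at position -12. The start regions of 7 of the 10 cytokine genes were in the table. The one for Il18 lies 20573 bases from the start of its kept transcript, so it is not the start of the transcript measured here. Il6 was the only one of these 7 with the NF-kB form, GGGATTTTCC at position -44, and it also held the AP-1 form and the C/EBP form. Missing letters in this window say nothing about whether a factor acts on the gene elsewhere.

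Il1rn, the IL-1 receptor antagonist gene at chr2:24336853-24351494 (plus strand, ENSMUSG00000026981), stood at 557, 573 and 1153 normalised counts in KO libraries, against 1122, 1149 and 347 in WT libraries. Each group held 1 library unlike the other 2, KO replicate 3 being high and WT replicate 3 low, so the ranges overlapped almost fully. Il1rn had a log2 change of -0.09 (SE 0.46, 95% interval -1.13 to 0.94, limma adjusted p = 0.945), and its sign turned when WT replicate 1 or 2 or KO replicate 1 or 2 was left out. The ratio of Il1rn to Il1a was 0.459, 0.256 and 0.684 in KO libraries, against 1.10, 0.951 and 0.893 in WT libraries, without overlap (exact permutation p = 0.1, adjusted exact p = 0.189 over the 17 ratios). The ratio of Il1rn to Il1b was 0.168, 0.199 and 0.515 in KO libraries, against 0.181, 0.293 and 0.147 in WT libraries, and overlapped (exact permutation p = 0.6). Of the 6 annotated Il1rn transcripts, a single-exon model at the upstream start held 0 to 6.18 normalised counts, and the second long coding model, which starts elsewhere, stood at 96.9% of the kept one.

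Il18 encodes a further IL-1 family cytokine that caspase-1 matures and that resting Kupffer cells, the resident macrophages of the liver, already contain. Its transcript lies at chr9:50575273-50581837 (plus strand, ENSMUSG00000039217). It stood at 170, 210 and 149 normalised counts in KO libraries, against 411, 368 and 203 in WT libraries. Only KO replicate 2 and WT replicate 3 overlapped, and by a small margin. The log2 change was -0.84 (SE 0.30, 95% interval -1.53 to -0.16) with a limma adjusted p of 0.183. Of 7 Kupffer cell markers, 3 had a log2 change above 0, 4 were below, and none passed or was at 0. Their sums were 25555 to 37772 in KO and 26122 to 81831 in WT libraries. Marco averaged 6252 in KO and 23112 in WT (log2 change -1.63), while Clec4f averaged 7182 in KO and 3190 in WT (log2 change 1.12). The sums therefore do not stand for every Kupffer cell marker. Il18bp, whose product traps IL-18, had 504 to 848 normalised counts in KO and 563 to 927 in WT libraries (log2 change -0.09, limma adjusted p = 0.908). The ratio of Il18bp to Il18 was 2.95, 4.03 and 5.32 in KO libraries, against 1.89, 2.52 and 2.76 in WT libraries, without overlap (exact permutation p = 0.1, adjusted exact p = 0.189).

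Il6, at chr5:30013144-30019981 (plus strand, ENSMUSG00000025746), stood at 293, 155 and 139 normalised counts in KO libraries, against 133, 183 and 86.5 in WT libraries. KO replicate 1 was the highest of the 6 libraries, and the other values overlapped. Il6 had a log2 change of 0.53 (SE 0.38, 95% interval -0.33 to 1.38, limma adjusted p = 0.529), with 0.19 without KO replicate 1 and 0.24 without WT replicate 3. Stellate and endothelial cells also make IL-6. Of 10 stellate cell markers, 8 were above 0 and Col1a1, named for passing, rose, as did 2.09% of all tested genes. None of the 10 was at 0, and their sums were 28678 to 51689 in KO and 18307 to 24327 in WT libraries. Whether these cells contributed Il6 reads was not tested.

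Osm encodes oncostatin M, a gp130 cytokine of myeloid cells, and lies at chr11:4236420-4241026 (plus strand, ENSMUSG00000058755). It stood at 1338, 913 and 804 normalised counts in KO libraries, against 1130, 1181 and 857 in WT libraries. The values overlapped, and Osm had the narrowest WT range of the 10 genes, its highest WT library being 1.38 times its lowest. The log2 change was -0.07 (SE 0.23, 95% interval -0.59 to 0.44, limma adjusted p = 0.910) and turned to 0.079 without KO replicate 3 and 0.014 without WT replicate 2.

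Il12b encodes p40, the subunit that IL-12 and IL-23 share, and lies at chr11:44400063-44414033 (plus strand, ENSMUSG00000004296). It was the rarest of the 10 genes, with 4, 5 and 8 reads in KO replicates 1 to 3, against 38, 16 and 33 reads in WT replicates 1 to 3. As normalised counts these were 5.96, 5.96 and 6.77 in KO and 39.1, 16.8 and 18.5 in WT, so all KO values were below all WT values. Summed over libraries, Il12b had a CPM of 0.397 in KO, with an exact 95% Poisson interval of 0.232 to 0.636, against 1.62 in WT, with an interval of 1.30 to 1.995. These intervals cover counting error only. The log2 change on the scale of log2(value + 1) was -1.74 (SE 0.68, 95% interval -3.27 to -0.21, limma adjusted p = 0.217), and this scale understates changes of so low a gene. Of 8 markers of dendritic cells, a further source of IL-12, 4 were above 0 and none passed or was at 0. Their sums were 5079 to 9362 in KO and 4184 to 4516 in WT libraries. Ccr7 and Fscn1 made most of these sums, and Ccr7 alone ran from 1366 to 6046 in KO and 1194 to 1799 in WT. The 4 below 0 were Flt3, Siglech, Cd209a and Xcr1, at -0.97, -0.50, -0.41 and -0.34. The sums therefore do not show that all dendritic cell markers were higher in KO.

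Tnfsf12 encodes TWEAK, a TNF family ligand whose receptor Fn14, the product of Tnfrsf12a, is induced in injured liver. It lies at chr11:69686250-69695849 (minus strand, ENSMUSG00000097328). It stood at 763, 796 and 924 normalised counts in KO libraries, against 383, 641 and 446 in WT libraries. Every KO value was above every WT value, and the KO libraries differed by no more than 1.21 times. The log2 change was 0.78 (SE 0.22, 95% interval 0.29 to 1.28), the smallest p of the 10 genes, with a limma adjusted p of 0.0985 that did not pass. Its reads are not all specific, since 50.7% of its bases are shared on the same strand with the read-through gene Tnfsfm13, which joins Tnfsf12 to Tnfsf13. Tnfsfm13 averaged 1008 ± 91.0 normalised counts in KO and 792 ± 166 in WT (log2 change 0.37, limma adjusted p = 0.385), and Tnfsf13 itself 615 ± 67.3 in KO and 529 ± 118 in WT. Relative to Tnf, Tnfsf12 stood at 0.298, 0.340 and 0.329 in KO libraries, against 0.0958, 0.182 and 0.291 in WT libraries, without overlap (exact permutation p = 0.1, adjusted exact p = 0.189).

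Il10, at chr1:131019845-131024974 (plus strand, ENSMUSG00000016529), was the most variable of the 10 genes. It stood at 656, 273 and 98.9 normalised counts in KO libraries, against 1338, 571 and 439 in WT libraries. The KO libraries differed by 6.63 times among themselves and the WT libraries by 3.05 times, and KO replicate 1 lay above WT replicates 2 and 3. The log2 change was -1.41 (SE 0.63, 95% interval -2.82 to 0.0017, limma adjusted p = 0.278), with -0.71 without KO replicate 3 and -2.07 without KO replicate 1. Its ratio to Tnf was 0.256, 0.117 and 0.0356 in KO libraries, against 0.334, 0.162 and 0.286 in WT libraries, and overlapped (exact permutation p = 0.2). The ratio of Il10 to Il12b, which rests on the few Il12b reads, was 12.9 to 94.3 in KO and 22.5 to 33.4 in WT libraries (exact permutation p = 0.7). All 8 monocyte markers were below 0 and Cx3cr1, chosen here for passing, fell, as did 0.352% of all tested genes. None of the 8 was at 0, and their sums were 11871 to 18730 in KO and 18181 to 31857 in WT libraries. Whether monocytes contributed to Il10 was not tested.

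**Figure D3:**
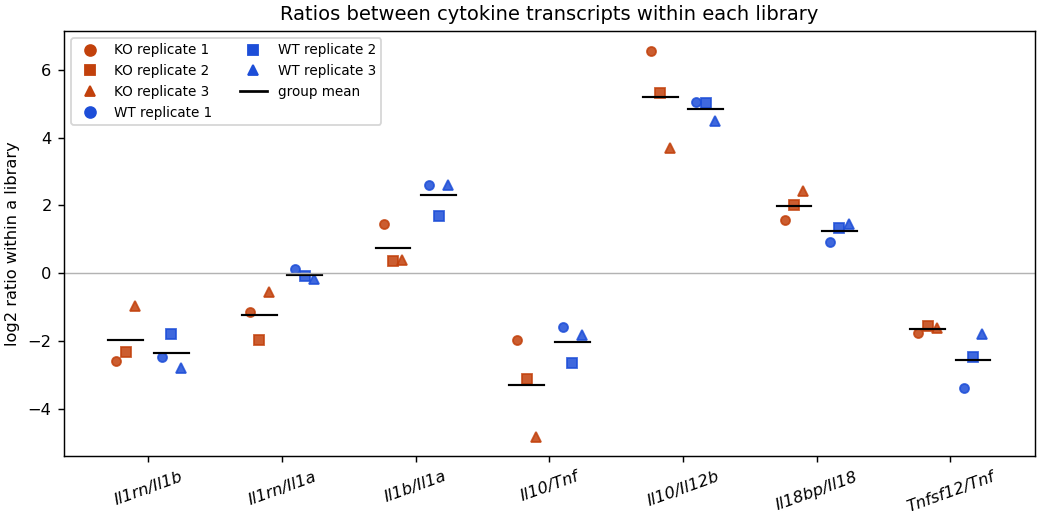
Log2 ratios between pairs of cytokine transcripts within each library, KO in orange to the left and WT in blue to the right, with marker shape giving the replicate and a black line the group mean. The groups do not overlap for Il1rn/Il1a, Il1b/Il1a, Il18bp/Il18 and Tnfsf12/Tnf, and overlap for the other 3 ratios. Il1a and Tnfsf12 did not overlap as single genes either, so the ratios that hold them are not separate results. The share of such ratios over other gene pairs was not computed.

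Myeloid cells make most of these cytokines, so each was also set against a panel of 10 myeloid genes (Adgre1, Ptprc, Csf1r, Cd68, Fcer1g, Tyrobp, Laptm5, Cybb, Ctss and Spi1). The geometric mean of the panel was 9087, 7347 and 8421 normalised counts in KO libraries, against 14111, 12390 and 9527 in WT libraries, and 9 of its 10 genes had a log2 change below 0. Dividing each library by the panel moved the median log2 change of all genes by 0.52, and 14.5% of all genes were then called. On that scale Il1a had a log2 change of 1.61 (limma adjusted p = 0.0128) and Tnfsf12 one of 1.31 (limma adjusted p = 0.0126), and these 2 of the 10 genes passed. Tnf, Il1rn, Osm and Il1b, which had log2 changes below 0 on the main scale, had 0.40, 0.43, 0.45 and 0.045 on the panel scale. Every such value was still below the median of all genes on that scale, 0.56. Tested as single ratios, Il1a, Tnfsf12, Il6 and Osm over the panel were higher in all KO libraries than in any WT library, and Il12b over the panel was lower. Over all tested genes 37.8% were higher without overlap on that scale and 1.17% lower, so 4 of 10 higher is near the general share. Each of the 5 had an exact permutation p = 0.1 and an adjusted exact p of 0.189.

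**Figure D4:**
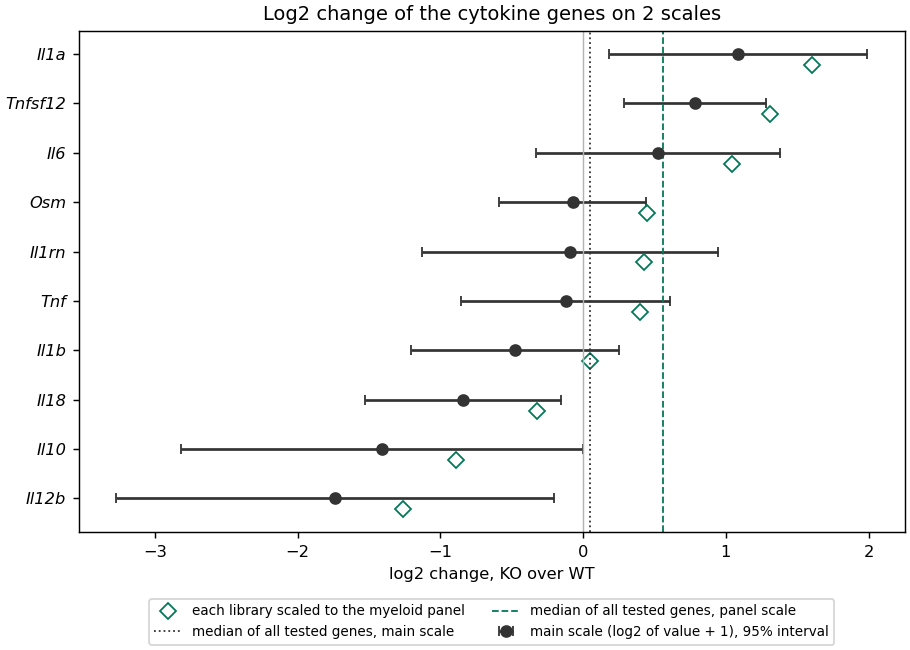
Log2 change of KO over WT for the 10 cytokine genes, with limma's 95% interval on the main scale (black) and the value after each library was scaled to the myeloid panel (green diamonds). The dotted and dashed lines give the median of all tested genes on each scale, 0.05 and 0.56, and the panel scale moves all 10 genes upward together with that median.

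The genes that receive, mature, induce and answer these cytokines were examined as 7 lists. Of 107 genes tested, 46 had a log2 change above 0 and 61 below. Their median was -0.08, and limma called none, where 2.44% of all genes were called. At an unadjusted p under 0.05 there were 26 of them, 24.3%, beside 18.0% of all genes. edgeR called 0 of the 107, beside 1.81% of all genes, and limma-voom called 2, Il6ra and Tnfrsf1b, beside 2.14%. DESeq2 called 15, beside 9.02%. Without KO replicate 1, limma called 4 (Il6ra, Maf, Tnfsf10 and Tnfsf15), beside 809 of the 16220 genes tested in that setting. With myeloid panel scaling limma called 10, beside 14.5% of all genes: Il1r1, Il6st, Lif, Lifr, Maf, Osmr, Saa3, Tnfrsf12a, Tnfsf10 and Tnfsf9, all higher in KO. On that scale Il1r1 and Tnfsf10 had log2 changes of 1.48 and 1.31, with limma adjusted p of 0.00645 and 0.0163, and Maf had a limma adjusted p of 0.0117.

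Among 17 receptors, 9 were above 0 and 8 below, and the median log2 change was 0.18. Il6ra, the ligand-binding chain for IL-6, stood at 1938, 1768 and 1406 normalised counts in KO libraries, against 3321, 2600 and 3232 in WT libraries (log2 change -0.84, limma adjusted p = 0.0543). All KO values were below all WT values, and the gene passed limma with TMM or DESeq2 size factors and when KO replicate 1 was left out. Tnfrsf1b, the TNF receptor found mainly on leukocytes, averaged 4905 ± 340 in KO and 9432 ± 2284 in WT (log2 change -0.92, limma adjusted p = 0.0637). Il10ra, the IL-10 binding chain, averaged 2580 ± 343 in KO and 3960 ± 299 in WT (log2 change -0.62, limma adjusted p = 0.101). Il1r1, the signalling IL-1 receptor, averaged 1097 ± 246 in KO and 578 ± 183 in WT (log2 change 0.95, limma adjusted p = 0.111), without overlap, while the decoy receptor Il1r2 averaged 533 ± 278 in KO and 394 ± 210 in WT. Il1r1 is also expressed by endothelial and stellate cells, whose marker sums are given above.

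Of 12 genes of maturation and binding, 11 were below 0 (median log2 change -0.18), and none had an unadjusted p under 0.05. Casp1, the protease that matures IL-1β and IL-18, averaged 755 ± 76.8 normalised counts in KO and 1011 ± 212 in WT (log2 change -0.41, limma adjusted p = 0.329). Adam17, which sheds TNF from the membrane, had a log2 change of -0.44, and Rhbdf2, which carries ADAM17 to the cell surface, one of -0.21. Of 20 inducing factors, 7 were above 0. Myd88, the adaptor of toll-like and IL-1 receptors, averaged 1226 ± 39.3 in KO and 1976 ± 412 in WT (log2 change -0.67, limma adjusted p = 0.103). Spi1, the myeloid factor PU.1, had a log2 change of -0.55, and Maf, a factor that promotes Il10 in macrophages, had 0.98 (limma adjusted p = 0.109), where Il10 itself had -1.41.

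Of 15 genes that control mRNA stability, 5 were above 0 and the median was -0.08. Zfp36 itself stood at 42257, 33582 and 22893 normalised counts in KO libraries, against 30217, 30436 and 34621 in WT libraries (log2 change 0.01, SE 0.33, limma adjusted p = 0.993), so the WT values lay inside the KO range. Zc3h12c, a relative of the ribonuclease Regnase-1, averaged 209 ± 38.0 in KO and 431 ± 120 in WT (log2 change -1.01, limma adjusted p = 0.0849). Mapkapk2, the kinase that inactivates tristetraprolin, had a log2 change of -0.75, and Rc3h1, which encodes Roquin-1, one of -0.49. Among tested genes with an annotated 3′ UTR, the 952 with the word TTATTTATT had a median log2 change of -0.04, with 3 called higher and 5 lower. The 11874 without it had a median of 0.06, with 304 called higher and 48 lower.

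Genes that answer these cytokines were mixed, with 8 of 19 above 0 and a median log2 change of -0.06. Socs3, the feedback inhibitor of gp130 signalling, averaged 7955 ± 3075 normalised counts in KO and 6507 ± 1499 in WT (log2 change 0.23, limma adjusted p = 0.784). Bcl3, Irak3 and Tnip1, which restrain NF-kB and IL-1 receptor signalling, had log2 changes of -0.59, -0.88 and -0.59 with limma adjusted p of 0.142, 0.159 and 0.187. Of 12 other TNF family ligands, 9 were above 0, and of 12 other interleukins and interferons, 7 were. Tnfsf15, the ligand TL1A, stood at 50.7, 2.38 and 4.23 normalised counts in KO libraries, against 108, 78.8 and 74.1 in WT libraries (log2 change -3.16, limma adjusted p = 0.107). Tnfsf9, the ligand of 4-1BB, had a log2 change of 0.52 (limma adjusted p = 0.506). Tnfsf10, the death ligand TRAIL, averaged 629 ± 170 in KO and 355 ± 26.7 in WT (log2 change 0.79, limma adjusted p = 0.114). Ifnb1, Il27 and Il36g had log2 changes of -1.81, -1.76 and -0.81, with limma adjusted p of 0.269, 0.320 and 0.262.

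**Figure D5:**
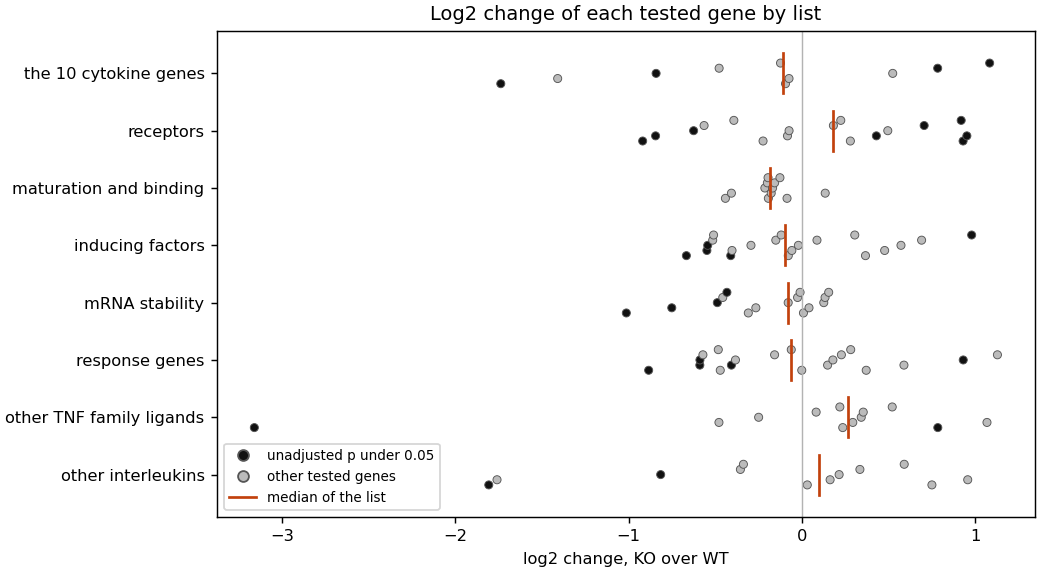
Log2 change of KO over WT for each tested gene of the 10 cytokines and of the 7 lists, black where the unadjusted limma p was under 0.05 and grey otherwise, with the list median as a line. The medians lie between -0.18 for maturation and binding and 0.27 for the other TNF family ligands, and Tnfsf15 is the point farthest to the left.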

How the data were processed

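Each deposited table holds, per the file header, normalised counts for 79382 Ensembl transcripts of 1 library. The authors divided read counts by 1 factor per library to give this signal, as the values show: 100% were whole multiples of 1 step per library (tolerance 0.001), which gave back the reads. Tools named in the submitters' processing notes, without roles, are STAR 2.4.0k, HTSeq 0.5.3, DESeq 1.8.3, SAMtools and bcl2fastq 2.17, with the build GRCm38.p4. The sources used here do not give counting options or strand. The 2 annotated Il12b transcripts had the same value in every library, so a read in shared exons can count for more than 1 transcript. Values of other transcripts of a gene are therefore not separate from the kept one, and summing transcripts can count a read repeatedly. GENCODE M21 matched 78332 transcripts and 23394 genes.

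limma 3.58.1 with a trended prior was run on log2(value + 1) with genotype as the only term, for 15619 genes kept by filterByExpr, with Benjamini-Hochberg adjustment. In simulated data for KO against WT on 15619 genes true log2 changes of 1, 2, 3 and 4, given to 50 genes each, were found in 20%, 70%, 88% and 88%, with 6 false calls among 15419 unchanged genes. edgeR 4.0.16, DESeq2 1.42.0 and limma-voom on the recovered reads were alternatives. Cytokine genes, lists, ratios and the panel were chosen with earlier results of these data known. Named from each list are the 3 genes of smallest p, plus Il1r1, Il1r2, Il18bp, Zfp36 and Socs3. Of the listed interleukins, 4 had no matching row and are not analysed here.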

Additional observations from a re-analysis of the deposited data

How the results depend on the processing

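Over 18 alternatives for each cytokine gene (17 for Il12b, removed by the filter that asks 3 libraries for a CPM of 1), 164 of 179 values kept their direction and their side of the threshold. The count of called cytokine genes, 0, became 2 with the myeloid panel scaling (Il1a and Tnfsf12) and 1 with the replicate number as a block, and stayed 0 otherwise. The panel scaling turned the log2 changes of Tnf, Il1b, Osm and Il1rn to 0.40, 0.045, 0.45 and 0.43. Leaving out 1 library gave ranges of -0.55 to 0.14 for Tnf, -0.29 to 0.079 for Osm and -0.66 to 0.20 for Il1rn, and the other 7 genes kept their direction.

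The block called Il10 (log2 change -1.41, limma adjusted p = 0.0353, range over all alternatives 0.0353 to 0.615) and 539 genes in all. Same-numbered libraries did not deviate together, with correlations of -0.01, 0.09 and -0.14, and not every library correlated best with its own number, so the numbers were not taken as pairs.

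Over all genes, 381 were called, 326 higher and 55 lower in KO. The count was 2265 with panel scaling (2243 higher and 22 lower), 1409 with DESeq2 (959 higher and 450 lower), 240 with transcripts summed and 8 to 809 without 1 library, the lowest without KO replicate 3 and the highest without KO replicate 1. Depth limits Il12b, with at most 8 reads in a KO library. The cause of these differences was not tested.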

Other observations

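Il1bos, an antisense transcript that begins near the first exon of Il1b and was chosen after its values were seen, held 2.98, 15.5 and 11.0 normalised counts in KO libraries, against 22.7, 34.7 and 22.5 in WT libraries. Its log2 change was -1.55 (SE 0.73, limma adjusted p = 0.306), and the groups did not overlap, as for 22.9% of all tested genes.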
